A study of Mus musculus with 9 samples.

Results

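Hippo signaling genes were examined in whole ovaries of wild-type (WT) mice and of mice lacking estrogen receptor β (ERβKO), using 10 genes that span the pathway from its kinases to its targets. The genes were the kinases Stk3, Stk4, Lats1 and Lats2, the kinase adaptor Mob1a, the effectors Yap1 and Wwtr1 (TAZ), the DNA-binding partner Tead1 and the target genes Ctgf and Cyr61. They were picked by name and not by their values, though earlier results of these data were known when they were chosen. Each symbol matched a row of the count table, so that these were 10 of the 46078 genes counted. Bulk mRNA sequencing was available from 5 WT and 4 ERβKO ovaries, and the question addressed here is whether loss of ERβ changed the level of these transcripts. All mice were on the C57BL/6J strain and are listed as untreated. The ERβKO allele came from a floxed Esr2 allele (B6.129X1-Esr2tm1Gust) recombined with a Rosa26-Cre deleter, which removes exon 3 in the germline, and the WT controls were offspring without Cre. The deletion is thus carried by every cell from the start of development and not by granulosa cells alone. Mice of the study were 4 to 20 weeks old. The age of each mouse sequenced is not given in the sources used here, and the estrous cycle was not synchronized. A protocol text shared by all samples describes a high-fat or control diet and injections with DPN, an ERβ agonist, or vehicle. It does not say which of these the mice listed as untreated received.

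The Hippo pathway is a kinase cascade. STK3 and STK4 (MST2 and MST1), held by the scaffold SAV1, activate LATS1 and LATS2 with the help of the MOB1 adaptors, and the LATS kinases phosphorylate YAP1 and TAZ, which keeps them out of the nucleus. When the cascade is off, YAP1 and TAZ bind TEAD factors and switch on genes such as Ctgf and Cyr61, which encode secreted CCN matrix proteins. In the ovary, the pathway is known for limiting follicle activation and growth, and mechanical disruption of the tissue is known to release YAP1 from this restraint. Much of this regulation acts through phosphorylation and localization of the proteins, which RNA levels do not measure.

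The letters that TEAD factors recognize were looked for in the 250 bases before and 50 bases after the transcription start (RefSeq, GRCm38.p6), since YAP1 and TAZ reach DNA through them. An entry was found for 7 of the 10 genes (Cyr61 under its RefSeq symbol Ccn1), and Wwtr1 and Lats2 had 2 starts each. GGAATG, searched on both strands, was present before the start in Yap1, Wwtr1, Cyr61 and Mob1a, and after the start in 1 window of Lats2. For comparison, 14.7% of all 32851 promoters of that length held it. The matches before the start are printed here to set the 2 effectors beside a known target. Each is a stretch of 30 bases read 5′ to 3′ on the strand of the gene, with the motif or its reverse complement in capitals.
Yap1, chr9:8004720-8004749, minus strand: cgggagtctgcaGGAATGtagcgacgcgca
Wwtr1, chr3:57576029-57576058, minus strand: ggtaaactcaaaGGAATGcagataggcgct
Cyr61, chr3:145650071-145650100, minus strand: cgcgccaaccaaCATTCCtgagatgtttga
Mob1a, chr6:83325818-83325847, plus strand: tggccagaatagCATTCCtttaggagaaga
The motif began 141 bases before the start in Yap1, 103 in Cyr61 and 209 in Mob1a. In Wwtr1 it was 1 genomic match, lying 136 or 170 bases before the start depending on which of the 2 starts was used. The full estrogen response element, both arms of the palindrome with a 3-base spacer, was found in none of the members' windows and in 0.07% of all promoters. A single arm of it, AGGTCA, was found only in the Wwtr1 windows among the members, and in 16.3% of all promoters. These are letter matches and not measured binding.

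The libraries held 12353740 to 18717510 counts assigned to genes. The exon 3 deletion could not be checked from gene-level values, because reads from the rest of Esr2 are still counted. Esr2 was listed at 12.4 to 23.9 FPKM in WT and 10.5 to 23.7 FPKM in ERβKO ovaries (log2FC -0.02, SE 0.24). A principal component analysis of log2 library-scaled counts (CPM) placed WT replicate 2 at 9.43 on its first axis, with 35.9% of the variance. The other WT libraries lay between -43.8 and -15.6 and the ERβKO libraries between 19.4 and 35.3. Markers of granulosa, luteal, stromal and oocyte cells were all present. The theca marker Insl3 had 0 to 5 counts per library. Of its exon length, 64.8% is shared with Jak3 on the same strand, so its level is uncertain. These are bulk values, in which fewer cells of a type and less RNA per cell cannot be told apart.

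None of the 10 Hippo genes passed the test for a difference between ERβKO and WT ovaries. A differentially expressed gene (DEG) was required to have an adjusted p under 0.05, an absolute log2FC above 0.4 and a mean FPKM above 1 in at least 1 genotype. Under the quasi-likelihood test of edgeR, adjusted after Benjamini-Hochberg, 0 of 10 were DEGs, against 1.72% of the 16722 genes tested. All 10 passed the filter on low counts. At an unadjusted p under 0.05 the count was also 0 of 10, where 19.8% of all tested genes passed. DESeq2 called 0 of 10 as well, against 4.6% of its genes. Values of the genotypes overlapped for all 10 genes, whereas 7.61% of tested genes had FPKM values that did not overlap. The median log2FC was 0.0013 for the members and -0.00089 over all tested genes. For 8 of the 10 the 95% interval of the log2FC lay inside -0.4 to 0.4, so that a change of the size required for a DEG lay outside these intervals. Only Ctgf and Cyr61 had intervals that reached further, as the plot of log2 fold changes shows.

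**Figure D1:**
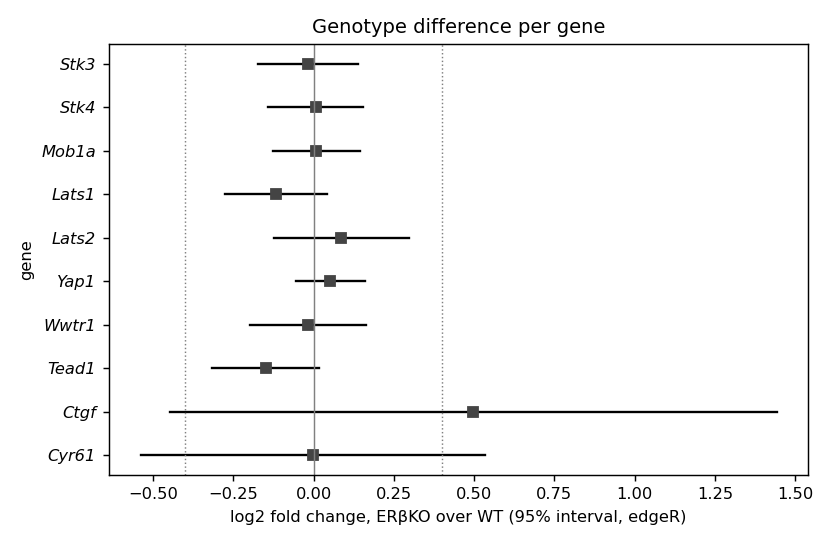
Log2 fold change of ERβKO over WT (x axis) for the 10 genes (y axis), with squares for the edgeR estimate from 5 WT and 4 ERβKO ovaries and lines for the 95% interval. Dotted lines mark -0.4 and 0.4. The intervals of 8 genes lie between the dotted lines, and those of Ctgf and Cyr61 extend past them.

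At the top of the cascade, the kinase Stk3 (ENSMUSG00000022329, chr15:34875496-35155806, GRCm38) was the most abundant of the 4 kinases. Its WT level was 26.0, 23.8, 26.4, 21.9 and 22.8 FPKM, given here and for the other genes in the order of replicates 1 to 5. The ERβKO level was 23.7, 24.0, 25.3 and 23.8 FPKM for replicates 1 to 4. All ERβKO values fell inside the WT range, and the log2FC was -0.017 (SE 0.070, adjusted p = 0.919). Its paralogue Stk4 (ENSMUSG00000018209, chr2:164070322-164155524) was lower per length in every ovary, at 10.9, 11.2, 10.6, 12.4 and 12.4 FPKM in WT and 12.3, 11.7, 11.0 and 12.3 FPKM in ERβKO. Here too the ERβKO values lay within the WT range, with a log2FC of 0.0058 (SE 0.067, adjusted p = 0.970). Stk3 exceeded Stk4 by 1.77- to 2.48-fold in WT and 1.93- to 2.30-fold in ERβKO. The adaptor Mob1a (ENSMUSG00000043131, chr6:83326016-83343776), which LATS kinases need for activation, had the highest mean level of the 10 genes. It was present at 26.1, 28.7, 28.7, 24.5 and 25.8 FPKM in WT and 27.1, 27.6, 27.9 and 27.3 FPKM in ERβKO. Its log2FC was 0.0079 (SE 0.061, adjusted p = 0.958), and the ERβKO ovaries spanned less than the WT ovaries did.

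The kinases that act directly on YAP1 and TAZ were expressed at lower levels. Lats1 (ENSMUSG00000040021, chr10:7681209-7716458) measured 11.1, 11.5, 10.0, 11.5 and 12.1 FPKM in WT and 9.91, 10.7, 10.9 and 10.5 FPKM in ERβKO. All but 1 of the ERβKO ovaries lay within the WT range with replicate 1 just under it. The log2FC was -0.12 (SE 0.07, adjusted p = 0.399). Lats2 (ENSMUSG00000021959, chr14:57642077-57758388) measured 10.1, 7.99, 7.58, 9.37 and 8.82 FPKM in WT and 10.8, 8.72, 9.25 and 9.55 FPKM in ERβKO. The genotypes overlapped, with ERβKO replicate 1 highest, and the log2FC was 0.09 (SE 0.09, adjusted p = 0.658). Of the Lats2 exon length, 42.4% is shared with a gene model on the same strand that has no row in the count table, so its level carries that uncertainty.

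**Figure D2:**
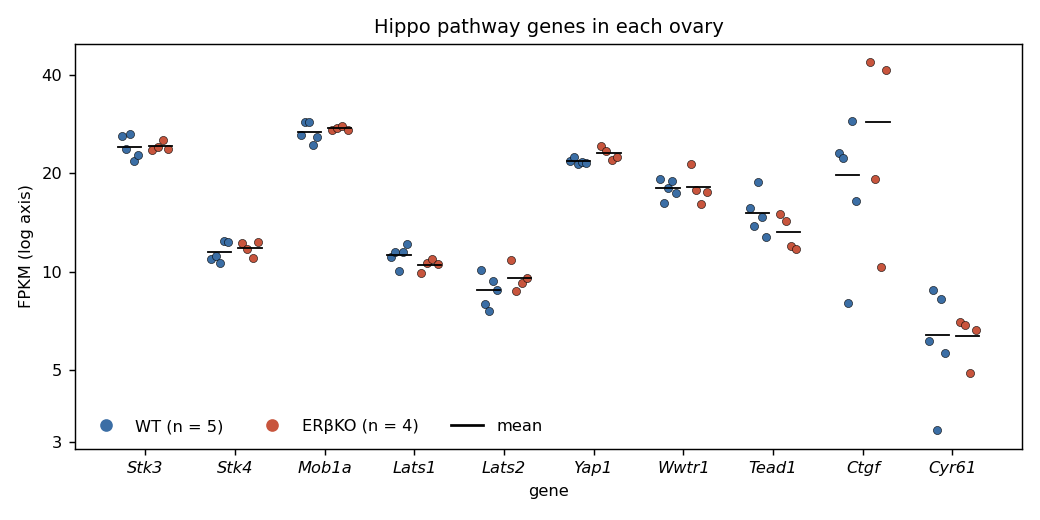
FPKM on a log axis (y) of the 10 genes (x) in each of 5 WT (blue) and 4 ERβKO (red) ovaries, with black lines for the genotype mean. Genotypes overlap for every gene. Ctgf spreads from 8.04 to 43.8 FPKM while Yap1 stays between 21.4 and 24.4 FPKM.

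The effectors were both well expressed. Yap1 (ENSMUSG00000053110, chr9:7931999-8004596), the transcriptional coactivator that the cascade restrains, measured 21.9, 22.4, 21.4, 21.6 and 21.6 FPKM in WT. In ERβKO ovaries it stood at 24.4, 23.4, 22.0 and 22.5 FPKM. The upper 3 of the ERβKO values lay above all WT values and the fourth inside their range. The difference of 0.05 on the log2 scale (SE 0.05, 95% interval -0.05 to 0.16) did not pass the test (adjusted p = 0.588). Wwtr1 (ENSMUSG00000027803, chr3:57455649-57575910), which encodes its paralogue TAZ, measured 19.3, 16.2, 18.0, 19.0 and 17.5 FPKM in WT and 21.3, 17.8, 16.1 and 17.5 FPKM in ERβKO. The highest and the lowest ovary were both ERβKO, and the log2FC was -0.017 (SE 0.082, adjusted p = 0.932). Yap1 exceeded Wwtr1 in 9 of 9 ovaries, by 1.14- to 1.38-fold.

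Tead1 (ENSMUSG00000055320, chr7:112679318-112906807), a DNA-binding partner of YAP1 and TAZ, came closest to a genotype difference among the 10. FPKM values were 15.6, 13.8, 18.8, 14.7 and 12.8 in WT and 15.0, 14.3, 12.0 and 11.7 in ERβKO. ERβKO replicates 3 and 4 lay below all WT ovaries and the other two inside their range. The log2FC was -0.15 (SE 0.08, 95% interval -0.32 to 0.02), and the unadjusted p from edgeR was 0.0737 (adjusted p = 0.303). The 2 units ordered the ovaries differently for this gene. WT replicate 3 was highest in FPKM, but its 156 CPM was the lowest of the WT libraries, which ranged up to 196 CPM. Over the 9 ovaries log2 FPKM and log2 CPM of Tead1 correlated with r = 0.27, whereas r was 0.76 to 1.00 for the other 9 genes. The edgeR fit uses counts and so does not carry the high FPKM value.

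The target genes behaved differently from the pathway components in that they varied strongly between ovaries of the same genotype. Ctgf (ENSMUSG00000019997, chr10:24595442-24598683), encoding connective tissue growth factor, measured 23.1, 22.4, 8.04, 28.9 and 16.5 FPKM in WT and 43.8, 19.3, 10.3 and 41.4 FPKM in ERβKO. ERβKO replicates 1 and 4 lay above all WT ovaries, while ERβKO replicates 2 and 3 lay inside the WT range. The log2FC was 0.50 (SE 0.43, 95% interval -0.45 to 1.44, adjusted p = 0.556). The estimate was 0.23 without ERβKO replicate 1, 0.27 without ERβKO replicate 4, 0.29 without WT replicate 3 and 0.78 without ERβKO replicate 3. Of the Ctgf exon length, 23.2% lies opposite the antisense gene Gm15270, which had 19 to 53 counts per library beside 409 to 2487 for Ctgf. Cyr61 (ENSMUSG00000028195, chr3:145646976-145649981), encoding a related matrix protein, measured 6.14, 8.79, 3.26, 8.24 and 5.62 FPKM in WT and 6.99, 6.87, 4.90 and 6.64 FPKM in ERβKO. All ERβKO values fell within the WT range. The log2FC was -0.0032 (SE 0.24, 95% interval -0.54 to 0.53, adjusted p = 0.995). Changes within that interval in either direction remained compatible with these values.

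The highest ovary exceeded the lowest by 5.45-fold in FPKM for Ctgf and 2.69-fold for Cyr61. For the other 8 genes this range was 1.14- to 1.60-fold. The SD of log2 CPM within genotype was 0.83 for Ctgf, larger than in 97.7% of tested genes and larger than in 99.7% of genes of a similar level. For Cyr61 it was 0.44, above 92.5% of genes of a similar level. At the other end, Yap1 had an SD of 0.04, smaller than in nearly all tested genes, with only 0.239% below it overall and 1.12% below it among genes of a similar level. The remaining members lay between 0.08 and 0.15, in the range of percentiles 23.9 to 66.6 for their level. Yap1 was thus the steadiest of the 10 transcripts across ovaries and Ctgf the least steady, as the plot of spread against level shows.

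**Figure D3:**
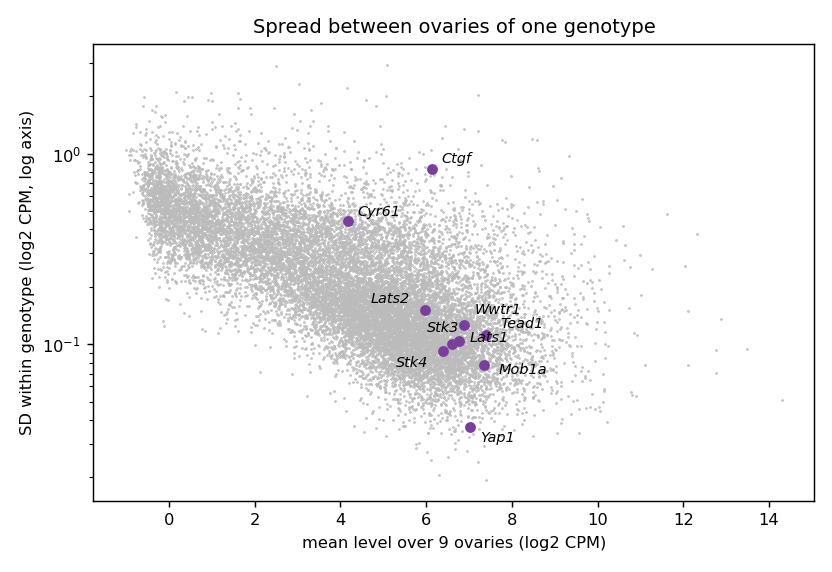
SD of log2 CPM between ovaries of one genotype (y, log axis) against mean log2 CPM over the 9 ovaries (x) for each tested gene (grey) and the 10 Hippo genes (purple). Ctgf, with an SD of 0.83, and Cyr61, with 0.44, lie above most genes of their level, and Yap1, with 0.04, lies near the lower edge.

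Ordered by mean FPKM over all 9 ovaries, Mob1a came first with 27.1 ± 1.40 (SD, n = 9). It was followed by Stk3 (24.2 ± 1.46), Ctgf (23.7 ± 12.5) and Yap1 (22.4 ± 0.968). Wwtr1 (18.1 ± 1.61), Tead1 (14.3 ± 2.14), Stk4 (11.6 ± 0.715) and Lats1 (10.9 ± 0.730) came next, and Lats2 (9.14 ± 1.01) and Cyr61 (6.38 ± 1.68) last. Mob1a exceeded Stk3 and Yap1 exceeded Wwtr1 in 9 of 9 ovaries. The place of Ctgf was not set by these data. Stk3 exceeded it in 6 of 9 ovaries, and Ctgf exceeded Yap1 in 4 of 9. Neighbors further down the order kept their order in 7 or 8 of 9 ovaries.

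Ratios within an ovary were then compared between genotypes, since paralogues can shift against each other while each stays within its spread. There were 6 such comparisons, each by a two-sided exact permutation test whose smallest possible p with 5 against 4 ovaries is 0.0159, with Benjamini-Hochberg adjustment over the 6. None passed. The lowest p-values were those of the LATS kinases and the MOB1 adaptors, and the largest log2 difference was that of Ctgf over Cyr61. Lats1 over Lats2 was 1.10 to 1.44 in WT and 0.913 to 1.22 in ERβKO ovaries, a log2 difference of -0.23 (exact permutation p = 0.0794, adjusted p = 0.238). Mob1a over its paralogue Mob1b was 3.37 to 5.20 in WT and 5.01 to 5.13 in ERβKO ovaries, a log2 difference of 0.29 (exact permutation p = 0.0794, adjusted p = 0.238). WT replicate 3 alone reached the ERβKO level of that ratio. Ctgf over Cyr61 was 2.46 to 3.77 in WT. In ERβKO it was 6.26 and 6.24 in replicates 1 and 4 and 2.81 and 2.11 in replicates 2 and 3, a log2 difference of 0.38 (exact permutation p = 0.349, adjusted p = 0.457). Yap1 over Wwtr1 differed by 0.07 (exact permutation p = 0.381, adjusted p = 0.457) and Stk3 over Stk4 by -0.04 (exact permutation p = 0.794). Tead1 supplied 39.5% ± 5.66 (SD, n = 5) of the summed FPKM of Tead1 to Tead4 in WT and 36.0% ± 2.69 (SD, n = 4) in ERβKO (exact permutation p = 0.349, adjusted p = 0.457). The difference of -3.47 percentage points became -1.16 without WT replicate 3.

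**Figure D4:**
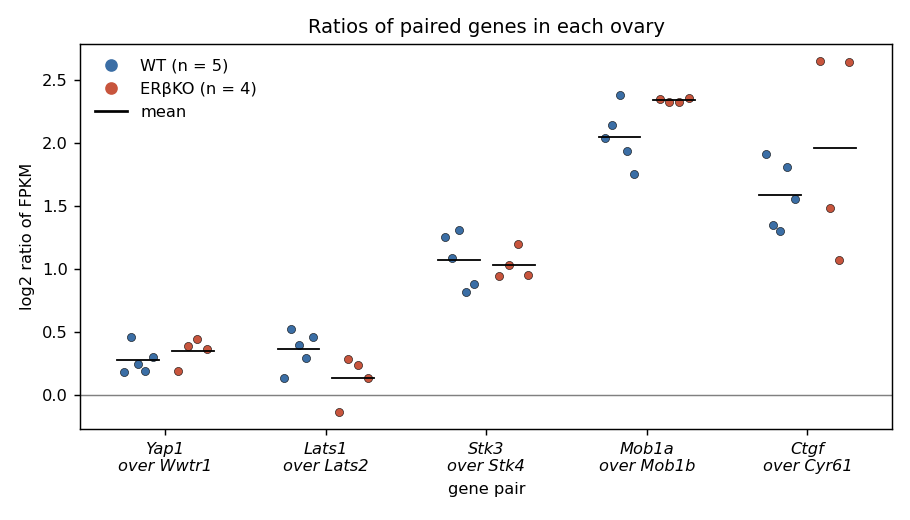
Log2 ratio of FPKM (y) for 5 gene pairs (x) in each WT (blue, n = 5) and ERβKO (red, n = 4) ovary, with black lines for genotype means. Genotypes overlap for every pair. The ERβKO ovaries lie close together for Mob1a over Mob1b and fall into a higher and a lower pair for Ctgf over Cyr61.

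Beyond the 10 genes, 53 further genes of the pathway were taken from 5 lists, of which 48 passed the low-count filter. Only Sav1 was a DEG (2.08% of the 48, against 1.72% of all tested genes and 0.801% that were DEGs with lower levels in ERβKO). The share called was thus close to the background. At an unadjusted p under 0.05 the lists held 13 genes (27.1%, against 19.8% of all tested genes), 11 lower and 2 higher in ERβKO. The split by direction was not counted over all tested genes at that p, so it has no background here. FPKM did not overlap between genotypes for 3 genes, Sav1, Scrib and Taok2 (6.25%, against 7.61%). DESeq2 called 2 genes, Sav1 and Wisp1. The median log2FC of the 48 genes was -0.03.

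Among the 12 core partners 1 fell and none rose. Sav1 (ENSMUSG00000021067, chr12:69965012-69987002), the scaffold that joins STK3 and STK4 to LATS, measured 36.6, 27.2, 28.1, 31.7 and 35.5 FPKM in WT ovaries. It measured 19.2, 20.4, 21.1 and 20.5 FPKM in ERβKO ovaries. Every ERβKO value lay below every WT value. Whether DNA carried along with the targeted Esr2 allele had a part in this was not tested. Of the Sav1 exon length, 25.4% lies opposite Atl1, which had 134 to 247 counts per library beside 986 to 1734 for Sav1 and a log2FC of 0.07 (SE 0.15). The log2FC of Sav1 was -0.67 (SE 0.11, 95% interval -0.92 to -0.43, adjusted p = 0.017, edgeR's quasi-likelihood test). The size of the difference was stable, from -0.73 to -0.62 with each library left out in turn, but the call was not. The adjusted p was 0.0666 without ERβKO replicate 2 and 0.0520 without ERβKO replicate 4. Without WT replicate 2, the library that stood apart, the log2FC was -0.73 with an adjusted p of 0.00705.

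Other core partners did not pass. Mob1b, the second MOB1 adaptor, measured 6.35, 6.52, 5.52, 6.41 and 7.67 FPKM in WT and 5.32, 5.50, 5.57 and 5.32 FPKM in ERβKO. Only WT replicate 3 reached into the ERβKO range, and the log2FC was -0.29 (SE 0.10, adjusted p = 0.152). Frmd6 (chr12:70825514-70902232), a membrane-associated upstream regulator, measured 5.22 to 6.38 FPKM in WT and 3.93 to 5.24 FPKM in ERβKO (log2FC -0.38, SE 0.10, adjusted p = 0.0868). Frmd6 lies on the same chromosome as Sav1. A part of DNA carried along with the targeted Esr2 allele was not tested for it either. The kinase Taok2, which can activate STK3 and STK4, measured 17.4 to 20.9 FPKM in WT and 21.7 to 23.1 FPKM in ERβKO. Its genotypes did not overlap, but the log2FC of 0.17 (SE 0.06, adjusted p = 0.147) missed the test.

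Of the 12 upstream polarity genes none was a DEG. Scrib, a basolateral polarity scaffold, measured 7.53, 7.63, 6.95, 7.92 and 6.73 FPKM in WT and 9.68, 9.23, 10.8 and 9.75 FPKM in ERβKO. Every ERβKO ovary was higher than every WT ovary. Its adjusted p was 0.0173 (edgeR's quasi-likelihood test), but the log2FC of 0.35 (SE 0.06) stayed under the 0.4 that a DEG required. The atypical cadherin Fat4 (log2FC -0.36, SE 0.17, adjusted p = 0.281) and its ligand Dchs1 (log2FC -0.25, SE 0.11, adjusted p = 0.227) did not pass.

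**Figure D5:**
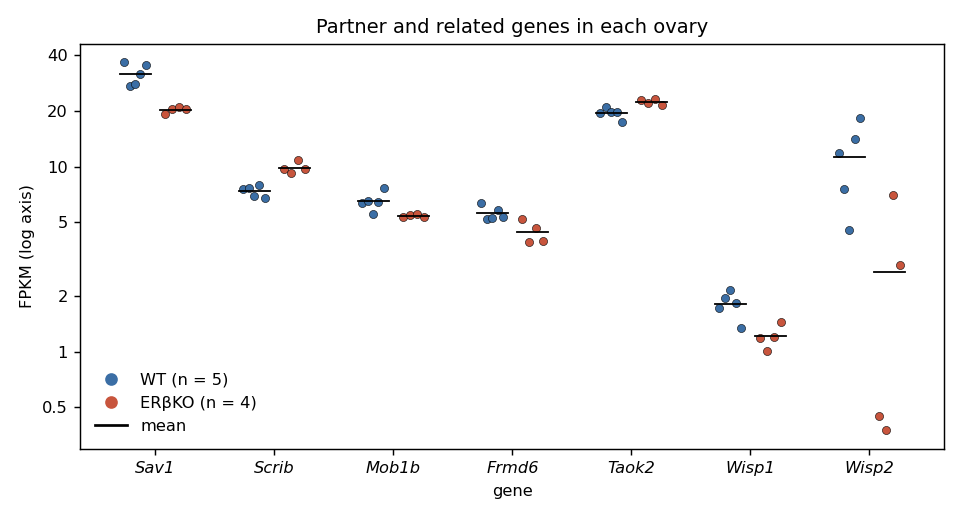
FPKM on a log axis (y) of 7 further pathway and CCN genes (x) in each WT (blue, n = 5) and ERβKO (red, n = 4) ovary, with black lines for genotype means. Sav1 lies lower and Scrib and Taok2 lie higher in all ERβKO ovaries. Mob1b, Frmd6, Wisp1 and Wisp2 overlap.

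The TEAD family and its cofactors held no DEG among 5 tested genes. Tead2 ranged from 13.4 to 18.9 FPKM in WT and 14.3 to 18.7 FPKM in ERβKO, a level near that of Tead1. Tead3 ranged from 5.28 to 6.62 FPKM and 6.14 to 6.83 FPKM, and Tead4 from 0.532 to 1.15 FPKM and 0.371 to 1.12 FPKM. The log2FC was -0.10 for Tead2, 0.09 for Tead3 and -0.0013 for Tead4. The TEAD cofactor Vgll3 measured 3.82 to 7.29 FPKM in WT and 2.73 to 4.68 FPKM in ERβKO (log2FC -0.56, SE 0.23, adjusted p = 0.206). Vgll1 and Vgll2 were too low to test.

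Of the 16 tested genes in a wider list of YAP and TAZ targets, 0 were DEGs, against 1.72% of all tested genes. An unadjusted p under 0.05 was found for 3 of the 16, a share close to the 19.8% of all tested genes. All 3 had lower values in ERβKO. These were Asap1, an Arf GTPase-activating protein (log2FC -0.66, SE 0.23, adjusted p = 0.160), Myof, a membrane repair protein (log2FC -0.30, SE 0.12, adjusted p = 0.202), and Fjx1 (log2FC -0.57, SE 0.23, adjusted p = 0.214). Asap1 measured 15.7, 8.27, 11.8, 17.8 and 20.5 FPKM in WT and 9.66, 8.82, 9.34 and 10.6 FPKM in ERβKO. WT replicate 2 was the lowest of all, and without it the log2FC was -0.81 with an adjusted p of 0.0238. The list had a median log2FC of -0.02, with 7 positive and 9 negative values.

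The other CCN genes tested had lower FPKM than Ctgf in every ovary, except Wisp2 in WT replicate 5. Wisp1 measured 1.73, 1.94, 2.16, 1.84 and 1.34 FPKM in WT and 1.19, 1.00, 1.20 and 1.45 FPKM in ERβKO. Only ERβKO replicate 4 reached the WT range. The log2FC was -0.59 (SE 0.14), with an adjusted p of 0.0620 in edgeR and 0.00445 in DESeq2. Wisp2 measured 11.9, 7.57, 4.55, 14.1 and 18.3 FPKM in WT and 0.448, 0.375, 7.02 and 2.93 FPKM in ERβKO. ERβKO replicates 1 and 2 were far below all others and replicate 3 was within the WT range, so that the log2FC of -2.13 carried an SE of 0.78 (adjusted p = 0.169). Nov was under 1 FPKM throughout (log2FC 0.40, SE 0.35, adjusted p = 0.564).

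Cell type markers differed between the same ovaries, and their part in the lower Sav1 level or in the values of Scrib was not tested. For comparison, 1.72% of all tested genes were DEGs by edgeR and 19.8% had an unadjusted p under 0.05, and DESeq2 called 4.6% of its genes. Of the 10 luteal markers 9 had a negative log2FC, 0 were DEGs by edgeR, 4 had an unadjusted p under 0.05 and 2 were called by DESeq2. Their summed FPKM was 3223 to 6941 in WT and 2667 to 4220 in ERβKO. All 10 granulosa markers had a positive log2FC and 2 were DEGs by edgeR and 5 by DESeq2, with a summed FPKM of 1077 to 1228 in WT and 1401 to 1765 in ERβKO. Of the 5 tested theca markers 1 was a DEG, Aldh1a1, and the summed FPKM was 471 to 735 in WT and 842 to 1729 in ERβKO. Aldh1a1 alone was 424 to 620 FPKM in WT and 761 to 1276 FPKM in ERβKO, so these sums largely repeat that gene. Insl3, whose exons are shared with Jak3, was below the filter on low counts. No stromal, endothelial, macrophage, surface epithelium or oocyte marker was a DEG by edgeR. At an unadjusted p under 0.05 these lists held 1, 2, 1, 3 and 0 genes, and DESeq2 called 1 endothelial marker and none of the others.

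Deviations from the genotype means were used to describe which genes moved together from ovary to ovary, over 9 ovaries and with no test, since all values come from the same libraries. The pairs of members with the largest r in either direction are given first. They were picked from all pairs of members, which can by itself make r large. Tead1 and Cyr61 had a Pearson r of 0.82, Tead1 and Ctgf 0.80, and Ctgf and Cyr61 0.77. Wwtr1 and Lats2 had an r of 0.70. Mob1a ran opposite to Tead1, with an r of -0.84, and to Lats2 (-0.73) and Wwtr1 (-0.71). Stk3 ran opposite to Cyr61 (-0.75) and Tead1 (-0.73). Between the effectors and the target genes r was lower. Yap1 had an r of 0.42 with Ctgf and 0.22 with Cyr61. Wwtr1 had an r of 0.47 with Ctgf and 0.02 with Cyr61. The next genes were picked as the most alike among 16722 tested genes over 9 ovaries, so their r can be high from the picking alone. Of all tested genes, the pattern of Ctgf was most like AW554918 (r = 0.97), Cdh9 (0.96) and Bmp2 (0.96). That of Cyr61 was most like Gm6970 (0.97), Rasgrf1 (0.96) and Klf2 (0.96). Wwtr1 was most like Col20a1 (0.97), Sun2 (0.97) and 9230112E08Rik (0.96), and Lats2 like Lrrc8c (0.98), Mgea5 (0.96) and Colec11 (0.95). For Yap1, which varied least, the highest values were 0.91 for Tppp, 4930447C04Rik and Rgma. Among 12 immediate-early genes, whose levels respond quickly to handling of tissue, Cyr61 was most like Fos (r = 0.74) and Ctgf most like Egr2 (r = 0.74). These too are the highest values picked from 12. The lowest r was -0.50 for Ctgf (with Btg2) and 0.04 for Cyr61 (with Ier3). None of these 12 was a DEG by edgeR or DESeq2, and 3 had an unadjusted p under 0.05, beside 19.8% of all tested genes.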

How the data were processed

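RNA from 9 snap-frozen mouse ovaries (5 WT, 4 ERβKO) was sequenced by the authors from stranded poly-A libraries. The authors trimmed reads with Trim Galore, aligned them to mm10 (GRCm38) with STAR and deposited raw counts per gene from featureCounts. The strand setting of the counting is not given in the sources used here. The authors also deposited StringTie abundance files with FPKM, TPM and coverage per gene, of which FPKM was used and TPM and coverage were not. Totals of 12353740 to 18717510 counts per library set the precision.

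Each gene was taken by its symbol, with the highest summed count where a symbol repeated, and its FPKM by gene ID. FPKM rows of 1 ID were summed, and 6 genes without an FPKM value were set to 0. Counts were filtered (filterByExpr), TMM-scaled and tested over 16722 genes with edgeR 4.0.16 in R 4.3.3, with DESeq2 1.42.0 and limma 3.58.1 as alternatives. On simulated 2-fold changes among 16722 genes for 5 WT against 4 ERβKO libraries, edgeR recovered 97.5%. The changed genes were well counted, every gene had the same dispersion, and calls used the adjusted p alone. The percentage thus does not describe smaller changes or genes as variable as Ctgf. Ratios of FPKM were tested by exact permutation (SciPy 1.17.1). Genes of a similar level were those within 0.5 in mean log2 CPM. The named list genes were all DEGs, the 3 lowest unadjusted p-values per list, and Mob1b and Tead2 to Tead4. Other settings tried were scaling, low-count filters, pseudocounts, a replicate block, libraries numbered below 200 and each library left out. The libraries numbered 201 and 202 were WT replicates 4 and 5, so the limit of 200 left out WT ovaries alone. Replicate numbers did not pair the ovaries. The replicates came from 5 WT and 4 ERβKO mice, so p-values measure the spread between mice. No libraries of a genotype agreed within sampling noise (lowest chi-square per gene 10.7). The members and lists were chosen with earlier results of these data known.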

Additional observations from a re-analysis of the deposited data

Results flagged for a closer look

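Cyr61 in ERβKO replicate 3 stood apart from the rest of its genotype, with 4.90 FPKM beside 6.64 to 6.99 FPKM in the other 3 ERβKO ovaries. The gap was 0.834 of the range of that genotype. It was 1 of 66 groups of ovaries examined in this way, and chance alone marks about 1 group in 20. WT replicate 3, at 3.26 FPKM, was lower still, so the value lay inside the WT range. Ctgf was also lowest within its genotype in the same 2 ovaries, at 8.04 FPKM in WT replicate 3 and 10.3 FPKM in ERβKO replicate 3.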

How the results depend on the processing

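No Hippo member was a DEG under any of the 19 alternatives, and the lowest adjusted p was 0.178. Of 190 member values, 158 kept their direction and 32 changed sign, all without a call. Sign changes were Wwtr1 with libraries numbered below 200 (0.017) and limma (0.010 to 0.011), Stk3 with limma (0.0048 to 0.0051), Mob1a with libraries below 200 (-0.029), and Cyr61 with upper-quartile scaling (0.0026), libraries below 200 (0.10) and limma (0.036 to 0.051). Tead4 changed sign with upper-quartile scaling (0.0065) and a minimum of 10 counts (0.00074). Leaving out each library gave log2FC ranges of -0.093 to 0.032 for Wwtr1, -0.050 to 0.015 for Stk3, -0.019 to 0.045 for Stk4, -0.17 to 0.13 for Cyr61, -0.020 to 0.034 for Mob1a, -0.16 to 0.21 for Tead4 and -0.100 to 0.022 for Stk3 over Stk4. The 287 DEGs of all genes became 803 with DESeq2, 51 with libraries below 200, 39 with limma on log2(FPKM + 1) without a filter, and 60 (without ERβKO replicate 2) to 912 (without WT replicate 2) with 1 library left out. Of the wider lists 2 genes were DEGs with DESeq2 and with limma on log2(FPKM + 0.1), 0 with libraries below 200 or unfiltered limma, and 0 to 2 with 1 library left out. The call of Sav1 was kept in 14 of 19 alternatives. The causes were not tested. With the replicate number as a block there were 155 DEGs, 0 members and 0 list genes (Sav1 -0.61, adjusted p = 0.0799), Cyr61 was at 0.035 and Tead4 at 0.050. Same-numbered ovaries correlated by -0.04 to 0.13 in their deviations, so the numbers were not taken as pairs. The spread of Ctgf and the 144 to 418 counts of Cyr61 limit what can be seen for them.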
